A study of Rattus norvegicus with 6 samples.

Results

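Genes of the respiratory chain that are encoded in the nucleus were examined in the spinal cord of rats with bone cancer pain (BCP). The members were all rows of the gene table whose names start with Nduf, Uqcr, Cox4 to Cox8 or Atp5, or are Sdha, Sdhb, Sdhc or Sdhd, which gave 94 of 30957 rows. Assigned by name, 42 rows were put in complex I, 4 in complex II, 8 in complex III, 21 in complex IV and 19 in complex V. Ndufa4 was the exception, put in complex IV where it is now placed, while Ndufa4l2 stayed in complex I and Atp5sl in complex V. The members bear 89 distinct names, since 5 names occur on 2 rows each. By their names 82 rows are subunits, 7 are assembly factors of complex I, 1 is a pseudogene, and Ndufa4l2, Cox7a2l, Atp5s and Atp5sl are relatives not counted as subunits here.

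The respiratory chain carries electrons from NADH and succinate through complexes I to IV in the inner mitochondrial membrane to oxygen, and the protons pumped on the way drive ATP synthesis by complex V. Most subunits are encoded in the nucleus and imported, whereas a small set is encoded by the mitochondrial genome, and complex II has nuclear subunits only. Neurons depend on this pathway for the ATP that restores ion gradients after firing.

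The samples were 6 libraries from adult female Wistar rats, 3 labelled sham and 3 labelled BCP. In both groups the left tibia was pierced and Walker 256 cells, a rat mammary carcinoma line, were placed in its medullary cavity, living cells in BCP rats and heat-killed cells in sham rats. The ipsilateral part of the lumbar enlargement, freed of meninges, was taken on day 14, and total RNA depleted of ribosomal RNA was sequenced in stranded libraries. The tissue is a mixture of neurons and glia from which no cell type was isolated, so fewer cells of a type and less RNA per cell cannot be told apart. Counts on genes totaled 11779485 to 15004290 per library, and counts of a gene varied between replicates by a typical 7.72% beyond counting noise (biological coefficient of variation).

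Of the 94 members, 83 had enough counts to be tested. With edgeR's quasi-likelihood test and an adjusted p-value under 0.05, 13 of these 83 members were lower in BCP and 0 were higher. Among all 14908 tested genes 12.1% were lower and 15.8% were higher, so the share of members called lower (15.7%) lay near that of the whole table. At an unadjusted p under 0.05 edgeR counted 23 members lower and 1 higher, the latter being Cox6c, where 17.7% of all tested genes were lower and 19.6% higher. DESeq2 counted 0 members higher after adjustment. No member passed the study's added threshold of a 2-fold change by edgeR or DESeq2, which 6.45% of the tested genes passed with edgeR in either direction. The 13 members that fell were Ndufv1, Ndufv2, Ndufa6, Ndufa9, Ndufb8 and Ndufb10 of complex I, Cox4i1, Cox5b, Cox7c and Cox8a of complex IV, and Atp5a1, Atp5g3 and Atp5o of complex V.

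The changes were small and mostly of one sign. The log2FC (BCP against sham) was negative in 69 of the 83 tested members (83.1%), compared with 52.3% of all tested genes, and in 60 to 71 members with other scalings. The median log2FC of the members was -0.10, with values from -0.48 to 0.39, and that of all tested genes was -0.01. In 22 members every BCP library lay below every sham library, a pattern found in 19.8% of the tested genes. In 1 member, Atp5c1, every BCP library lay above every sham library, which was the case in 21.7% of the tested genes.

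A difference in the same direction was visible before any gene was tested. The members together made up 0.643%, 0.657% and 0.642% of the gene counts of sham libraries 1, 2 and 3, and 0.627%, 0.622% and 0.608% of those of BCP libraries 1, 2 and 3. The groups did not overlap in this share, which does not depend on the TMM scaling. Without that scaling the difference was smaller: the median log2FC of the members was -0.061 with library size only and -0.10 with TMM. The mean log2 CPM (counts scaled to a common library size, after TMM normalization) over the tested members was 5.26 ± 0.022 in sham compared with 5.16 ± 0.040 in BCP (SD, n = 3).

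**Figure D1:**
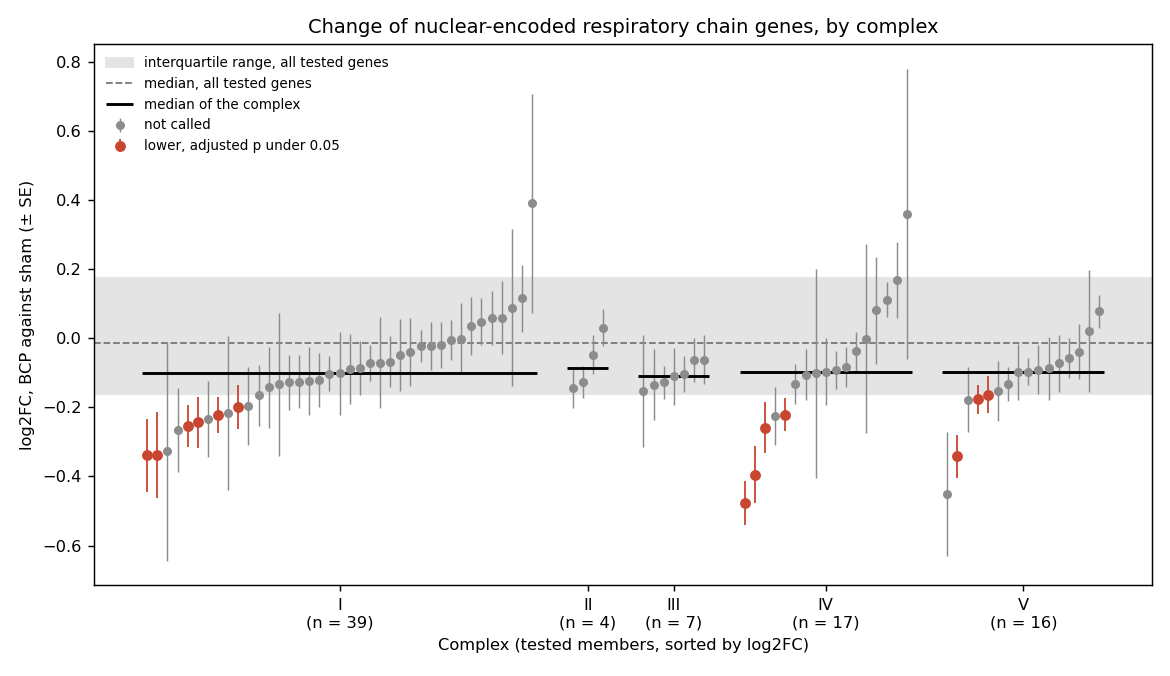
The vertical axis is the log2FC of BCP against sham with its SE for each of the 83 tested members, sorted within complexes I to V on the horizontal axis, with the 13 members that passed the adjusted threshold in red, a black line at the median of each complex, and the median and interquartile range of all tested genes in grey. The medians of the complexes lie between -0.09 and -0.11, and the red points occur in complexes I, IV and V.

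The complexes differed little in their medians. The median log2FC was -0.10 in complex I, -0.09 in complex II, -0.11 in complex III, -0.10 in complex IV and -0.10 in complex V. The rows of complex I include the 7 assembly factors, with a median of -0.00077, whereas its core and accessory subunits each had a median of -0.12. Calls were made in 6 of 39 tested members of complex I (15.4%), 4 of 17 of complex IV (23.5%) and 3 of 16 of complex V (18.8%). In complex II 0 of 4 and in complex III 0 of 7 were called. Of all tested genes 12.1% were lower, so 0 calls in complexes this small do not set them apart. At an unadjusted p under 0.05 edgeR counted 2 members of complex II and 1 of complex III, all lower, and DESeq2 called none in either complex, whereas upper-quartile scaling gave 2 calls in complex II and 1 in complex III. Whether the complexes differ in their change was not tested.

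Complex IV, cytochrome c oxidase, passes the electrons to oxygen, and its nuclear subunits surround a core encoded by the mitochondrial genome. Cox5b, which encodes a zinc-binding subunit on the matrix side, had the smallest p-value of all members. Its level in CPM, with libraries 1, 2 and 3 of a group always given in this order, was 68.9, 71.0 and 71.8 in sham against 53.4, 49.5 and 49.4 in BCP. The groups were far apart compared with the spread within each of them. Cox5b fell by 28.2%, a log2FC of -0.48 with an SE of 0.064 and an adjusted p of 9.53e-06 by edgeR. The gene lies at chr9:43259709-43262040 of Rnor_6.0.

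Cox8a, which encodes a small membrane-spanning subunit in its widely expressed form, varied more. It had 74.7, 72.6 and 85.9 CPM in sham against 65.9, 58.5 and 53.2 CPM in BCP, again without overlap. Cox8a (chr1:222466575-222468896) fell by 23.9%, with a log2FC of -0.39, an SE of 0.081 and an adjusted p of 0.00152. Cox4i1, the common isoform of the largest nuclear-encoded subunit, was more abundant, with 209, 222 and 217 CPM in sham against 194, 182 and 181 CPM in BCP. No BCP library reached the lowest sham library. Cox4i1 (chr19:54245950-54252225) fell by 14.2%, with a log2FC of -0.22, an SE of 0.047 and an adjusted p of 0.00128. Cox7c, another small membrane subunit, had 48.5, 46.0 and 48.9 CPM in sham against 41.7, 40.9 and 37.3 CPM in BCP. Its log2FC of -0.26 with an SE of 0.074 gave an adjusted p of 0.0124, and without BCP library 3 the adjusted p was 0.0748.

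Not every subunit of complex IV followed. Cox6c, a small subunit and the member of complex IV with the highest FPKM (a level corrected for gene length and library size), had 172, 161 and 155 CPM in sham against 182, 178 and 168 CPM in BCP. BCP library 3 lay below sham library 1, so the groups overlapped. Its log2FC of 0.11 with an SE of 0.051 did not pass (edgeR, adjusted p of 0.115). The ratio of Cox4i1 to Cox6c counts was 1.22, 1.38 and 1.40 in sham and 1.07, 1.02 and 1.08 in BCP, and that of Cox5b to Cox5a counts was 1.33, 1.53 and 1.32 against 1.16, 1.01 and 1.05. Both ratios were chosen after their values had been seen and were not tested. Cox5a itself, with a log2FC of -0.11, was not called, nor were Cox6a1 (-0.13), Cox7b (-0.08) and Ndufa4 (-0.09).

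The muscle, lung and testis isoforms of complex IV subunits that had a row were scarce in the spinal cord, and their shares did not separate the groups. Cox7a1, another tissue isoform, had no row in the gene table, so its level is unknown. Cox4i2 made up 1.04% ± 0.193 of the FPKM of both Cox4 isoforms in sham and 1.20% ± 0.441 in BCP (SD, n = 3, exact permutation test, two-sided, p = 0.6). Cox6a2, the isoform of heart and skeletal muscle, made up 2.24% ± 0.272 and 2.31% ± 0.477 of the FPKM of both Cox6a isoforms (SD, n = 3, exact permutation test, two-sided, p = 0.9). With 3 against 3 libraries this test cannot give a p below 0.1. Cox6b2 had 0.534 to 0.768 CPM in sham and 0.643 to 1.01 CPM in BCP, and Cox8b had at most 5 counts in any library.

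Promoters of the 4 members with the smallest p-values are shown, to give the letters around their starts together with the motifs found there. The sequences come from RefSeq on the build GRCr8 and run from 120 bases before to 50 bases after the annotated transcript start, on the strand of the gene. They lie at chr9:46417717-46417886, plus strand (Cox5b), chr19:65630263-65630432, plus strand (Cox4i1), chr1:213833574-213833743, minus strand (Cox8a) and chr3:79220615-79220784, minus strand (Atp5g3). Capitals mark matches to the ETS motif CCGGAAG, bound by the GABP factor among others, to the ERR motif CAAGGTCA of the estrogen-related receptors, and to the NRF1 motif, which reads GCGCA, any base, GCGC. Matches on the opposite strand appear as the reverse complement.
Cox5b: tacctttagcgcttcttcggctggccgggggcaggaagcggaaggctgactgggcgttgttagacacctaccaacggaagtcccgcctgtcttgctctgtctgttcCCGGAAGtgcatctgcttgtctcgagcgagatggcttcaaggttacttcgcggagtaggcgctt
Cox4i1: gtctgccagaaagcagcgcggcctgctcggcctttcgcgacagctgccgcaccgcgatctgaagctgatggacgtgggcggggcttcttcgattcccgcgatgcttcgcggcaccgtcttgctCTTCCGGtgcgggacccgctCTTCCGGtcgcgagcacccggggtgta
Cox8a: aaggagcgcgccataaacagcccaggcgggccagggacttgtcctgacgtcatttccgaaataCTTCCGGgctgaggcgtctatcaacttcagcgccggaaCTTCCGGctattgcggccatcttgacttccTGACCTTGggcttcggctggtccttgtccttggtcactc
Atp5g3: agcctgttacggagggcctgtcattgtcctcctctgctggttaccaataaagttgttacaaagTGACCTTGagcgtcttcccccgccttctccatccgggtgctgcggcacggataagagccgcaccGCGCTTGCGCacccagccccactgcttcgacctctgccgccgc

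In these sequences Cox5b held 1 ETS match at -14, counted from the transcript start as 1. Cox4i1 held ETS matches at 4 and 24, and Cox8a held ETS matches at -57 and -19 and an ERR match at 12. Atp5g3 held an ERR match at -57 and an NRF1 match at 8. A RefSeq promoter was found for 76 of the 89 names, and 38 of them held a match to an ETS, NRF1, ERR or YY1 motif (AAGATGGCG) on either strand of the full window of 300 bases.

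The motifs were searched in the promoters of all genes in the same way. The ETS motif occurred in 21 of the 76 members (27.6%), 16.7% of the tested genes with a promoter and 9.63% of all genes with one. The NRF1 motif occurred in 13 members (17.1%), against 9.62% of the tested genes and 4.82% of all genes. The YY1 motif occurred in 9 members (11.8%), against 3.52% and 1.99%, and the ERR motif in 4 members (5.26%), against 1.05% and 1.62%. Of the 13 members that fell, 5 held an ETS match, 3 a YY1 match, 2 an NRF1 match and 2 an ERR match, so most members with a motif were not called. No test was made of these shares, and a match is a run of letters, not a bound site.

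Complex V, the ATP synthase, consists of a catalytic head, stalks and a ring of c subunits in the membrane. The c subunit is encoded by 3 genes, Atp5g1, Atp5g2 and Atp5g3, whose mature products are identical. Atp5g3 (chr3:60811210-60813869) had 77.7, 84.6 and 80.4 CPM in sham against 67.9, 63.7 and 60.1 CPM in BCP. Every BCP library was lower than every sham library, and Atp5g3 fell by 21.1% (log2FC -0.34, SE 0.063, adjusted p of 0.000321 by edgeR). Atp5g1, with a log2FC of -0.10, and Atp5g2, with -0.09, were not called.

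The balance among the c subunit genes was described by their shares of FPKM. Atp5g3 gave 51.8%, 55.1% and 55.3% of their summed FPKM in sham and 51.4%, 50.03% and 47.8% in BCP. Atp5g1 gave 28.3%, 28.6% and 27.7% against 31.2%, 29.9% and 31.2%. Neither share overlapped between the groups, although sham library 1 and BCP library 1 nearly met for Atp5g3, and each gave p = 0.1 in a two-sided exact permutation test (n = 3), the smallest p that this design allows. Atp5g2 gave 17.7% ± 1.94 and 19.5% ± 1.86 (SD, n = 3, exact permutation test, two-sided, p = 0.2).

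In the catalytic head, Atp5a1 encodes the alpha and Atp5b the beta subunit. Atp5a1 had 540.4, 552 and 535 CPM in sham against 483, 491 and 466 CPM in BCP. The groups did not overlap, and Atp5a1 fell by 11.5% (log2FC -0.18, SE 0.042, adjusted p of 0.00285 by edgeR). Atp5b, the member with the highest FPKM of all (534 ± 14.3 in sham and 513 ± 5.74 in BCP, SD, n = 3), had 957, 986 and 938 CPM in sham against 898, 906 and 889.8 CPM in BCP. All BCP libraries of Atp5b were lower, but its log2FC of -0.10 did not pass adjustment (edgeR, adjusted p of 0.0759). Atp5d, the delta subunit, missed the threshold more narrowly (log2FC -0.13, adjusted p of 0.0538). Atp5c1, the gamma subunit of the rotating shaft, had 141, 134 and 140.1 CPM in sham against 149, 147 and 143 CPM in BCP, with a log2FC of 0.08 and an adjusted p of 0.253. The row of Atp5c1 is long, with 9764 bases implied by count and FPKM, and had 14.0 FPKM in sham, far below Atp5b. Whether all its reads come from this gene was not tested.

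Atp5o, which encodes the subunit that joins the head to the outer stalk, showed little spread. It had 87.4, 86.5 and 87.3 CPM in sham against 79.1, 77.9 and 76.3 CPM in BCP. The difference was a fall of 0.16 on the log2 scale by edgeR (SE 0.054, adjusted p of 0.0283), and it did not pass with DESeq2 or when any library other than BCP 1 was left out, with adjusted p-values up to 0.102. Atp5i, a small membrane subunit, had a log2FC of -0.45 but few counts (4.47 to 7.37 CPM), and its adjusted p was 0.0699.

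Complex I takes electrons from NADH. Its NADH-binding tip contains Ndufv1, which carries the flavin, and Ndufv2, which carries an iron-sulfur cluster. Ndufv2 had 111, 107 and 107 CPM in sham against 93.6, 90.9 and 94.7 CPM in BCP. Ndufv1 had 98.4, 105 and 91.8 CPM in sham against 82.3, 79.7 and 85.8 CPM in BCP. Both were lower in every BCP library than in any sham library. Ndufv2 (chr9:113875703-113900190) fell by 14.3%, with a log2FC of -0.22, an SE of 0.052 and an adjusted p of 0.00256. Ndufv1 (chr1:219254279-219259448) fell by 16.1%, with a log2FC of -0.25, an SE of 0.060 and an adjusted p of 0.00291.

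The other core subunits, most of which hold further iron-sulfur clusters or form the quinone site, were not called. Ndufs1, the large iron-sulfur protein beside the tip, had 244, 245 and 254 CPM in sham against 255, 243 and 234 CPM in BCP, fully overlapping, with a log2FC of -0.02 ± 0.046 (SE). Ndufs7, at the quinone site, had a log2FC of -0.13, and Ndufs3 and Ndufs8 had -0.12 and -0.09. All 7 core genes thus had a negative log2FC with TMM scaling (5 of them with library size only), and 2 of them fell.

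Accessory subunits of complex I shape and stabilise it without carrying electrons. Of 23 tested ones 4 fell (17.4%, near the 12.1% of all tested genes), and 20 had a negative log2FC (87.0%, against 52.3%). Ndufb8, of the membrane arm, had 72.5, 74.9 and 70.6 CPM in sham against 69.0, 60.5 and 54.9 CPM in BCP. Ndufb10, of the same arm, had 20.2, 21.9 and 20.8 CPM in sham against 18.6, 16.5 and 14.8 CPM in BCP. For both genes BCP library 1 lay close to the sham libraries and BCP library 3 lay lowest. The log2FC was -0.24 for Ndufb8 (SE 0.074, adjusted p of 0.0175 by edgeR) and -0.34 for Ndufb10 (SE 0.106, adjusted p of 0.0212), and both calls were lost without sham library 2, BCP library 2 or BCP library 3, with adjusted p-values up to 0.111 and 0.115. Ndufb10 was also not called by DESeq2, whereas Ndufb8 was.

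Ndufa9, which sits near the quinone site, had 64.4, 69.1 and 63.9 CPM in sham against 57.3, 55.5 and 59.3 CPM in BCP, without overlap. Its log2FC was -0.20 (SE 0.064, adjusted p of 0.025 by edgeR), and the adjusted p rose to 0.112 among 5 alternatives that lost the call, DESeq2 and leaving out sham library 2, BCP library 1 or BCP library 2 among them. Ndufa6 had 15.1, 20.9 and 17.8 CPM in sham against 15.2, 13.6 and 13.8 CPM in BCP. Sham library 1 lay within the BCP range, so Ndufa6 was the only member called lower whose libraries overlapped. Its log2FC was -0.34 (SE 0.123, adjusted p of 0.0471 by edgeR), and the call was lost in 8 of 14 alternatives, with DESeq2 and without sham library 2 or 3 or BCP library 2 or 3, at adjusted p-values up to 0.272.

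The 7 assembly factors of complex I, Ndufaf1 to Ndufaf7, build the complex but leave it. None was called by edgeR at an adjusted or an unadjusted p under 0.05, or by DESeq2 after adjustment, and their median log2FC was -0.00077, with 4 of 7 negative. Their levels were lower than those of most subunits, 4.10 to 14.4 FPKM in the sham libraries compared with a median of 38.2 FPKM over all members.

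**Figure D2:**
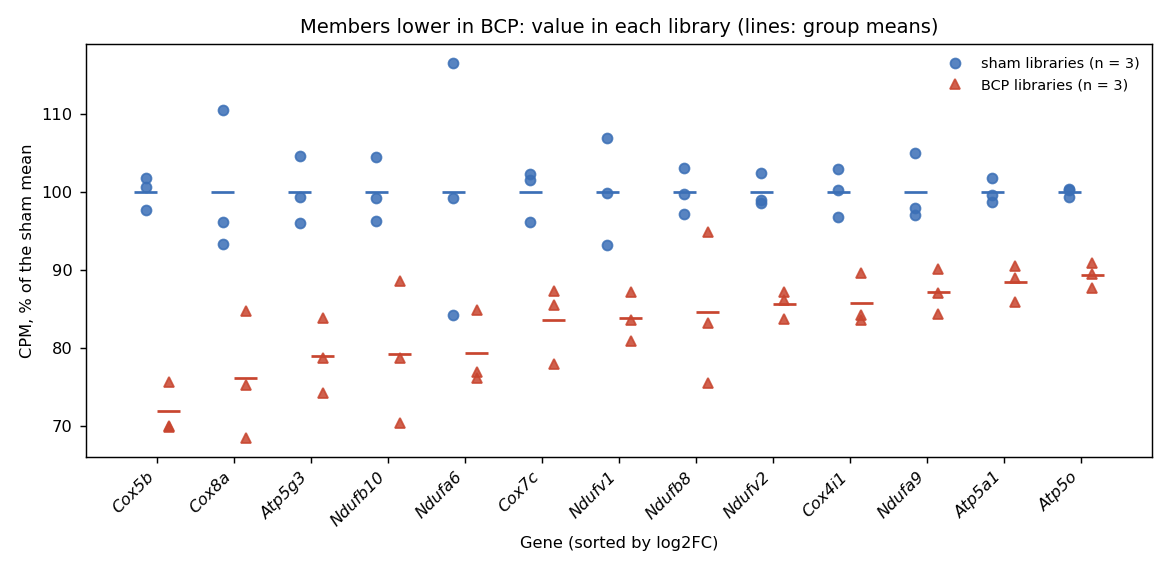
The vertical axis is the CPM of each library as a percentage of the mean of the sham libraries for the 13 members lower in BCP, ordered by log2FC on the horizontal axis, with circles for the 3 sham libraries, triangles for the 3 BCP libraries and short lines for the group means. The triangles lie below all circles in 12 of the 13 members, with Ndufa6 as the exception.

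Complex II, succinate dehydrogenase, also takes part in the citric acid cycle. Sdha, the flavin-carrying subunit, had 329, 358 and 351 CPM in sham against 332, 309 and 309.9 CPM in BCP. BCP library 1 lay above sham library 1, and the log2FC of -0.13 with an SE of 0.047 fell just outside the threshold (edgeR, adjusted p of 0.0512). The membrane anchors Sdhc and Sdhd had log2FC of -0.14 (adjusted p of 0.0886) and -0.05, and the iron-sulfur subunit Sdhb had 0.03.

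Complex III hands electrons on to cytochrome c, and all its 7 tested members had a negative log2FC. Uqcrc2, a large core protein of the matrix side, had 236, 222 and 221 CPM in sham against 216, 203 and 203 CPM in BCP. The groups were close but did not overlap, and the adjusted p was 0.0513 (log2FC -0.13, SE 0.047, edgeR). Uqcrfs1, the Rieske iron-sulfur protein, had a log2FC of -0.06 and overlapping libraries. Uqcrh, the hinge protein and the member of complex III with the highest FPKM, also had -0.06.

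By level per length, the members spanned a wide range. Atp5b led with 534 FPKM, followed by Cox6c with 357 ± 17.4, Cox4i1 with 291 ± 9.98 and Atp5a1 with 288 ± 5.11 in the sham libraries (SD, n = 3). Cox4i1 and Atp5a1 did not differ beyond their spread. In the BCP libraries Cox6c had 397 ± 13.9 FPKM, Atp5a1 262 ± 6.61 and Cox4i1 257 ± 7.87 (SD, n = 3). In the other complexes the highest members were Uqcrh with 189, Sdha with 149.7 and Ndufv2 with 120.3 FPKM in the sham libraries. Across the 83 tested members the Spearman correlation of the log2FC with the sham FPKM was -0.20 and with gene length 0.21, over genes of the same 6 libraries, which are not independent.

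Respiratory chain genes are short, and length was compared because the share of genes called lower differed with length in these libraries. Of the tested members 50 were under 1 kb, and 10 of them fell, with a median log2FC of -0.11. Among all 1739 tested genes under 1 kb 5.46% were lower and the median was 0.01. Calls also depend on the number of counts, and level was not matched in this comparison. The median sham FPKM was 38.2 over all members and 0.470 over all rows of the gene table, tested or not. Between 1 and 2 kb 3 of 26 members fell (median -0.10), against 7.99% of all genes of that length (median -0.00068). Among 6 members of 2 to 4 kb 0 fell by edgeR or DESeq2, with an unadjusted p under 0.05 for 2 of them (Sdha and Atp5d), whereas 12.8% of all genes of that length were lower. Over the whole table, the share of genes called lower was larger among longer genes, and it reached 18.8% at 4 kb and over.

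**Figure D3:**
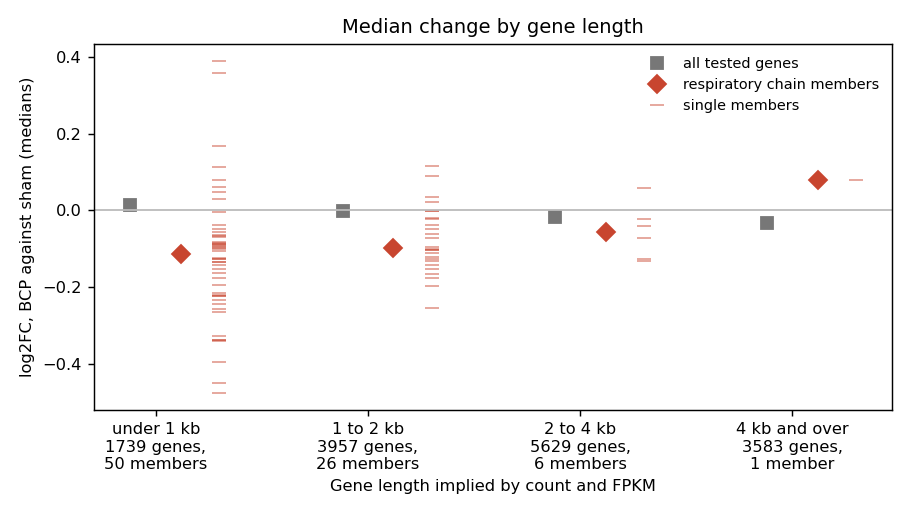
The vertical axis is the log2FC of BCP against sham and the horizontal axis is the gene length in 4 classes, with grey squares for the median of all tested genes, red diamonds for the median of the members and dashes for single members. Below 2 kb the medians of the members, -0.11 and -0.10, lie under those of all genes, and 76 of the 83 tested members are in these classes.

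Several rows could share reads. Cox7a2 and Cox6b1 occur on 2 rows each, of which 1 spans no more bases than its transcript and therefore has no intron. The intronless Cox7a2 row on chromosome 14 held 79.5% ± 1.70 of the counts of both rows in sham and 75.9% ± 2.40 in BCP (SD, n = 3), and its log2FC was -0.22 (edgeR, adjusted p of 0.0545) against 0.08 for the row on chromosome 8. The intronless Cox6b1 row on chromosome 2 held 56.3% ± 2.04 and 51.7% ± 0.620 (SD, n = 3), with a log2FC of -0.10 against 0.17 for the row on chromosome 1. How reads with several locations were counted is not given in the sources used here, so the values of single rows of these names are uncertain. Of the members that fell, Cox7c overlaps another gene row. Among the 61 tested members that neither share a name nor overlap another gene row, 12 fell and the median log2FC was -0.10. For all tested genes the share called lower was 12.1% and the median -0.01.

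The 11 members without enough counts included genes of well-known subunits. Ndufa1 was listed at 0 counts in all libraries, and the 2 rows named Atp5f1 had at most 5 counts. Ndufb4l1, Cox6c1, Cox7b2 and Cox8c were also listed at 0, and Cox8b, Atp5hl1 and the second rows of Ndufa13 and Uqcr10 had at most 5 counts. Since Ndufa1 and Atp5f1 encode subunits that respiring cells need, their low counts are given as listed and not as absence.

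The remaining parts of the pathway were described with lists of related genes. Of the 13 subunits encoded by the mitochondrial genome, 12 had a negative log2FC, with a median of -0.28, where 52.3% of all tested genes were negative. Mt-co1, the catalytic subunit of complex IV, and Mt-nd4l, of complex I, fell by 0.16 and 0.29 on the log2 scale (edgeR, adjusted p of 0.0159 and 0.0184), and Mt-nd6, the subunit encoded on the opposite strand from the rest, rose by 0.48 (adjusted p of 0.00115). Their summed share of gene counts was 4.34%, 3.92% and 4.74% in sham and 3.98%, 3.72% and 3.96% in BCP, which overlapped. The genes of cytochrome c and cytochrome c1, on 4 rows, were not called by edgeR, also at an unadjusted p under 0.05.

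Of 14 tested genes of pyruvate dehydrogenase and the citric acid cycle, all had a negative log2FC (median -0.10, and 13 of 14 negative with library size only) and 3 fell, or 1 with library size only and 6 with upper-quartile scaling. The citrate synthase gene Cs and the isocitrate dehydrogenase gene Idh3g each fell by 0.18 on the log2 scale (edgeR, adjusted p of 0.0113 and 0.0127). Of 32 tested assembly factors outside the naming rule of the members, 2 fell, 1 rose and the median was -0.03. Beside both lists, 12.1% of all tested genes were lower, 15.8% were higher and 52.3% had a negative log2FC. Sco1, a copper chaperone of complex IV, rose from 14.2 ± 1.63 to 21.2 ± 0.638 CPM (SD, n = 3, edgeR adjusted p of 0.000334). Lyrm7, which serves the insertion of the Rieske protein, and Cox19, which takes part in copper delivery to complex IV, fell by 0.39 and 0.26 on the log2 scale (adjusted p of 0.0108 and 0.0314).

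Of 14 tested regulators of mitochondrial genes, 2 fell (14.3%) and 1 rose. Among all tested genes 12.1% were lower and 15.8% higher, so the list was not called more often than the whole table. Gabpa, which encodes the DNA-binding subunit of the ETS factor GABP, had 32.4, 29.1 and 33.1 CPM in sham against 37.7, 42.4 and 41.0 CPM in BCP, without overlap (log2FC 0.36, SE 0.083, adjusted p of 0.00255 by edgeR). Its row overlaps that of the member Atp5j, which had a log2FC of -0.18 and was not called. Ppargc1a, a coactivator of mitochondrial biogenesis, and Esrrg, an estrogen-related receptor, fell by 0.25 and 0.16 on the log2 scale (adjusted p of 0.0323 and 0.0305). The other 11 tested regulators, Nrf1, Tfam and Esrra among them, were not called, and the median of the list was 0.03. Of 18 other mitochondrial proteins 2 fell, the ADP/ATP carrier gene Slc25a4 (log2FC -0.30) and the fusion gene Mfn1 (-0.20), and the median was 0.03.

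**Figure D4:**
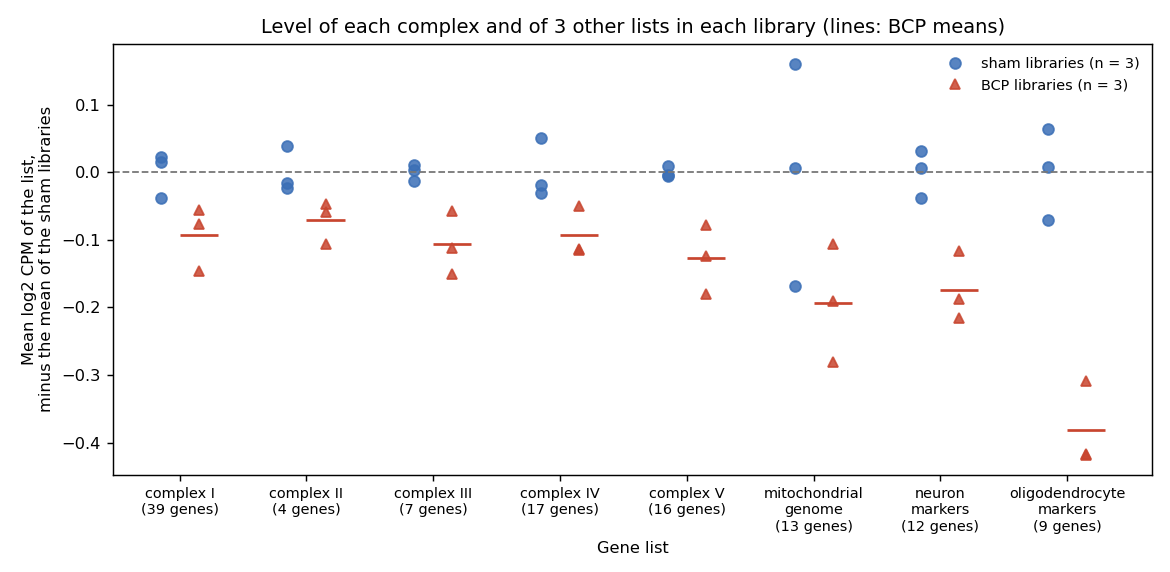
The vertical axis is the mean log2 CPM of a gene list in a library minus the mean of the sham libraries, and the horizontal axis gives complexes I to V, the subunits of the mitochondrial genome and the markers of neurons and oligodendrocytes, with circles for the 3 sham libraries, triangles for the 3 BCP libraries and lines for BCP means. With TMM scaling the triangles lie below the circles in every complex, by 0.07 to 0.13 between group means, whereas the groups overlap for the mitochondrial genome. The TMM factors were 0.982 to 0.989 in sham and 1.005 to 1.020 in BCP, which lowers BCP levels relative to sham. Whether single complexes separate without this scaling is not shown, and some gaps are of its size.

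Markers of several cell types moved between the same libraries. All 9 oligodendrocyte markers fell (median log2FC -0.37), and their summed level was 39801 to 45212 CPM in sham and 28706 to 31943 CPM in BCP. Of 12 neuron markers 6 fell (median -0.18), with a sum of 11200 to 11502 CPM against 9414 to 10507 CPM. Of 10 microglia markers 8 rose, with a sum of 277 to 368 CPM against 961 to 1177 CPM, and all 7 tested T cell markers rose, from a sum of 6.08 to 6.64 CPM to one of 49.0 to 56.1 CPM. All 4 red blood cell markers rose, from 244 to 258 CPM to 465 to 675 CPM in sum. Of 8 astrocyte markers 3 fell and 1 rose, with a sum of 5864 to 6240 CPM against 7507 to 9338 CPM. The higher astrocyte sum rested on Gfap, the one that rose, and on Aqp4 in BCP library 1, which had 2415 CPM there and 354 to 379 CPM in the other libraries. Without Gfap the sum was 3591 to 3771 CPM in sham, and 5609, 3320 and 3450 CPM in BCP libraries 1, 2 and 3.

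The lists of nerve root, muscle, meninges and endothelial cells had smaller sums than those of neurons, astrocytes and oligodendrocytes. The 5 tested nerve root and Schwann cell markers had 412 to 437 CPM against 318 to 362 CPM (2 fell), and 3 tested skeletal muscle markers had 9.43 to 11.5 CPM against 4.77 to 7.36 CPM (1 fell). The 5 tested meningeal and fibroblast markers had 47.7 to 81.9 CPM against 65.4 to 121 CPM and the 5 endothelial markers 287 to 296 CPM against 282 to 288 CPM, and none of either list was called by edgeR, also at an unadjusted p under 0.05. Col1a2 was listed at 0 in all libraries. The part of these cell types in the lower levels of respiratory chain genes was not tested.

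Noncoding transcripts near the members were compared, since the study predicted targets of lncRNAs within 10 kb. Of the listed lncRNAs, 149 lay within 10 kb of 66 members, 67 of them overlapping a member, and 97 were tested. Of these 97 lncRNAs 1 was called in either direction, compared with 1.97% of all tested lncRNAs, and 11 had an unadjusted p under 0.05, as had 13.3% of all tested lncRNAs. The called transcript, NONRATT003403.2 (chr1:219134323-219139392), lies 1900 bp from Ndufs8 and had 63, 78 and 72 counts in sham against 118, 127 and 155 counts in BCP. It rose by 1.05 on the log2 scale (edgeR, SE 0.153, adjusted p of 0.0153), whereas Ndufs8 was not called. The call was lost without BCP library 3 and without any single sham library.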

How the data were processed

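RNA of the ipsilateral lumbar enlargement was sequenced in 3 sham and 3 BCP libraries, grouped by their labels. Per the labels and the study's methods, the authors used Seqtk to filter reads and HISAT2 2.0.4 to align them to Rnor_6.0, quantified expression with StringTie 1.3.0 (versions from the submitters' processing notes), and they deposited unnormalized read counts per gene and per lncRNA transcript. The authors also deposited FPKM values beside the counts, normalized for length and library size, and FPKM is used here only for levels and shares. The counting program and its use of strand and of reads with several locations are not given in the sources used here. The study tested with edgeR at an adjusted p under 0.05 and a 2-fold change.

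The counts were fitted with edgeR 4.0.16 in R 4.3.3 (edgeR's filter by expression, TMM scaling, robust quasi-likelihood fit on the group alone, Benjamini-Hochberg adjustment over all tested rows), separately for genes and lncRNAs. CPM are counts relative to the TMM-scaled library size, and 0.1 CPM was added before log2 means over lists were taken. Gene length is the length implied by count and FPKM. DESeq2 1.42.0, other scalings and filters, the replicate number as a block and each library left out in turn were alternatives. Simulated counts with known changes were used to check the fit. Nothing says whether each library came from 1 animal, so p-values measure the spread between these libraries only. Promoters were taken from RefSeq (GRCr8), whose starts may differ from those used in this tissue. Python 3.11.15 and matplotlib 3.10.9 served for lists and plots.

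The members and the gene lists were chosen with earlier results of these data known. The rule named, in each complex, up to 3 members with the smallest p among those called, the members with the highest and the lowest FPKM, core subunits, c subunit genes, isoform pairs and members without enough counts, and in other lists up to 5 genes with the smallest p. Ndufa6, Ndufa9, Ndufb10, Cox7c, Cox7b, Atp5c1, Atp5d, Atp5i, Atp5j, Sdhc, Uqcrc2 and other members outside the rule were named after their values had been seen. Some genes that the rule selects are counted in their lists but not reported by name.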

Additional observations from a re-analysis of the deposited data

How the results depend on the processing

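The count of members lower in BCP (13) was 22 with upper-quartile scaling and ranged from 8 to 15 when a single library was left out, with 8 without sham library 2, BCP library 2 or BCP library 3. With DESeq2 it was 9 and with library size only 10. Members higher in BCP numbered 1, Cox6c, with library size only, and 0 under all other alternatives. The median log2FC of the members was -0.14 with upper-quartile scaling and -0.061 with library size only, while that of all tested genes moved to -0.05 and 0.03. Cox4i1, Cox5b, Cox8a, Ndufv1, Ndufv2, Atp5a1 and Atp5g3 kept their calls under all 14 alternatives run on single members. With the replicate number as a block (replicate block) the count of lower members was 11. Deviations of same-numbered libraries correlated by -0.105, 0.044 and -0.035, so the numbers were not taken as pairs. For lncRNAs near members the count was 2 with DESeq2, 0 with the replicate block and 0 to 1 without a library. The causes were not tested.

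The sign of some members near 0, none of them called, changed. With library size only the log2FC was 0.036 for Ndufb9, 0.017 for Ndufs1 and 0.041 for Cox4i2. With upper-quartile scaling it was -0.014 for Atp5s and -0.0046 for Sdhb. With at least 10 counts in every library it was 0.0017 for Ndufb9 and 0.0069 for Cox4i2, and with RLE size factors 0.0035 for Cox4i2. Without a library it ranged from -0.031 to 0.026 for Ndufb9, -0.023 to 0.10 for Atp5s, -0.049 to 0.0053 for Ndufs1, -0.12 to 0.035 for Uqcrfs1, -0.14 to 0.0053 for Atp5g2, -0.28 to 0.22 for Cox4i2, -0.23 to 0.077 for Cox6a2 and -0.031 to 0.19 for Cox7a2 of chromosome 8. Members with few counts, such as Cox4i2, Cox6a2 and Cox6b2, allow no firm statement at this depth.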

Other observations

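The annotation in the gene table places 131 rows in the KEGG pathway of oxidative phosphorylation, a list taken up after the values of the members had been seen. Of these rows 76 are members and 55 are not matched by the names that define them. Of the 45 tested rows outside the members, 12 were lower in BCP (26.7%) and 4 higher by edgeR at an adjusted p under 0.05. Their median log2FC was -0.15, and of all tested genes 12.1% were lower and 15.8% higher. These rows are not a separate set, since they include subunits of the mitochondrial genome described above. Of the 45 rows, 18 have names that start with Atp6, mostly subunits of the vacuolar proton pump that acidifies lysosomes and synaptic vesicles. These 18 gave 8 of the 12 lower and 2 of the 4 higher rows, with a median of -0.11 and values from -0.45 to 0.45.

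An lncRNA 6486 bp from the intronless Cox6b1 row, NONRATT016788.2, had 304 and 233 counts in sham libraries 1 and 2, 1 count in sham library 3 and 2 counts in each BCP library. Its level in sham libraries 1 and 2 thus stood apart from the other 4 libraries, and it did not pass edgeR's filter when all libraries were used. The study, by contrast, lists NONRATT016788.2 among its top down-regulated lncRNAs. Without sham library 3, NONRATT016788.2 was the only lncRNA near a member to be called.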
